A study of Mus musculus with 8 samples.

Results

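Glutathione, thioredoxin and antioxidant enzyme genes were followed in the quadriceps muscle of mice with and without a head and neck squamous cell carcinoma. The genes were chosen by name: the families of glutathione transferases, glutathione peroxidases, gamma-glutamyl transferases, peroxiredoxins, thioredoxins and glutaredoxins, plus 12 single genes of glutathione synthesis, superoxide and peroxide removal and their control (Gclc, Gclm, Gss, Gsr, Sod1, Sod2, Sod3, Cat, Nqo1, Srxn1, Nfe2l2 and Keap1). Of the 53819 gene symbols in the count table, 79 matched these names, and 63 of them had at least 80 counts summed over the 8 libraries. All 63 were among the 14070 genes that passed the count filter of the test. The other 16 had 0 to 47 counts in all and were not tested: Ggt1, Gpx2, Gpx5, Gpx6, Gsta1, Gsta2, Gsta5, Gstm3, Gstm6, Gsto2, Gstp3, Gstt4, Mgst2, Prdx6b, Txndc2 and Txndc8. Some of these are known from other tissues, such as Gpx2 from gut, Ggt1 from kidney and Txndc8 from testis.

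The study asked whether B0092, a cell line of this carcinoma, causes cachexia, the loss of weight and muscle that accompanies some cancers. Wild-type C57BL/6J mice, 8 weeks old at the start, received 500000 B0092 cells in PBS under the skin at the nape (tumor group, n = 4) or the same volume of PBS alone (control group, n = 4), and quadriceps was taken on day 36. A single line in a single inbred strain was used, and the sources used here do not state the sex of the mice. The labels name B0092 as cell line and carcinoma as cell type for all 8 samples, controls included, although the tissue is muscle.

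Glutathione is a tripeptide that muscle makes from glutamate, cysteine and glycine and uses to reduce peroxides and to conjugate reactive aldehydes. Thioredoxin does parallel work on protein disulfides, and both systems draw their electrons from NADPH, through glutathione reductase and the thioredoxin reductases. Superoxide, made mostly by mitochondria and oxidases, is turned into hydrogen peroxide by superoxide dismutases and then removed by catalase, glutathione peroxidases and peroxiredoxins. Many of these genes are targets of Nrf2 (gene Nfe2l2), a transcription factor that the adaptor Keap1 marks for degradation until oxidants modify it. Nrf2 binds the antioxidant response element, and FOXO factors, which drive atrophy genes in wasting muscle, bind another short element.

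Promoter sequence was searched for both elements, since Nrf2 and its inhibitor are themselves members of the set. RefSeq promoters of build GRCm38.p6 (250 bases before to 50 after the start) were found for 54 of the 63 genes. The core of the antioxidant response element was written as TGACNNNGC and read on both strands. It was present in 12 of the 54 genes (22.2%), against 17% of the tested genes and 14.0% of all 27025 genes with a promoter. Counted by single promoter, the share was 12.4% of all 32851. By call, 3 of the 10 genes with a promoter that were higher in tumor mice held it (Nfe2l2, Sod1 and Gstm5), as did 0 of the 3 lower genes and 9 of the 41 others. The FOXO element TGTTTAC, also read on both strands, was present in 3 of the 54 genes (5.56%), against 3.16% of tested genes and 4.05% of all genes (3.65% of single promoters). A match is a run of letters in this window and not a measured binding site. The stretches below show the match in capitals for the higher genes that hold it, for 3 classical Nrf2 targets that did not pass the test, and for Txnip, the thioredoxin inhibitor with a FOXO match.
Nfe2l2, chr2:75704869-75704913, minus strand: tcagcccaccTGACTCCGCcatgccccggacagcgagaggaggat
Sod1, chr16:90220680-90220740, plus strand: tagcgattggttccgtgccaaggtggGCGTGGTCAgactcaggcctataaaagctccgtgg
Gstm5, chr3:107895786-107895846, plus strand: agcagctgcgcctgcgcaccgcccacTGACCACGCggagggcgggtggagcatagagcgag
Gclm, chr3:122245397-122245457, plus strand: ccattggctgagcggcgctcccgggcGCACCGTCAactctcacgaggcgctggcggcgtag
Prdx1, chr4:116685440-116685500, plus strand: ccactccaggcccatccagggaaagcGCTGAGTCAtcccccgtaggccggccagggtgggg
Txnrd1, chr10:82859088-82859148, plus strand: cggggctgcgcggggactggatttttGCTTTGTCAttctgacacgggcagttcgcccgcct
Txnip, chr3:96557810-96557868, plus strand: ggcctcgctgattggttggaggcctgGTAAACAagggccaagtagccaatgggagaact
In Sod1, Gclm, Prdx1, Txnrd1 and Txnip the match lies on the strand opposite to the gene, so the capitals read as the reverse complement. The match begins 240 bases before the start in Nfe2l2, 56 in Sod1 and 42 in Gstm5.

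The libraries held 28436254 to 36139478 estimated counts, and levels are given as counts per 1000000 (CPM) after scaling between libraries. Myh4, the myosin heavy chain of type 2B fibres, made up 64.6% of adult myosin heavy chain CPM in control library 4 and 80.3% in tumor library 2, against 88.5% to 98.9% in the other 6 libraries, so results were also run without these 2 libraries. Muscle fibre genes summed to 139943 to 186995 CPM in controls and 91351 to 177008 CPM in tumor libraries (lowest in tumor library 4), and the tissue was muscle by these markers. Of these 10 genes, edgeR called 3 lower and 0 higher, against 8.73% lower and 11% higher over all genes. Acta1 (22434 to 29218 CPM in controls, 5088 to 17255 in tumor mice) and Myl1 (4852 to 10787 CPM, 1810 to 4321) did not overlap, while Myh4 and Ttn overlapped. Of 9 squamous epithelial markers, Krt5, Krt14, Krt6a and Dsg3 were at 0 in every library, and the list summed to 8.53 to 11.7 CPM in controls and 17.8 to 39.4 CPM in tumor mice. Most of that sum was Trp63 (6.27, 7.87, 9.40 and 9.13 CPM in controls and 15.7, 20.3, 36.2 and 26.2 CPM in tumor mice), while Krt16 and Dsp were at or near 0 and Perp and Sfn overlapped. Fibroblast markers (8 of 8 found) summed to 458 to 650 CPM in controls and 196 to 425 CPM in tumor mice, and endothelial markers (6 of 6) to 140 to 207 CPM and 72.8 to 122 CPM. Of the 6 endothelial markers, 3 were called lower and 0 higher. Kdr (19.9 to 41.9 CPM in controls, 6.26 to 14.8 in tumor mice) and Emcn (6.70 to 7.73 CPM, 1.96 to 4.08) did not overlap. Nor did Tek (9.96 to 17.9 CPM, 6.75 to 9.51) and Cdh5 (46.1 to 69.7 CPM, 22.5 to 45.2). Pecam1 (28.1 to 48.0 CPM in controls, 22.7 to 38.5 in tumor mice) and Vwf (15.7 to 22.7 CPM, 11.9 to 23.2) overlapped. Of the 8 fibroblast markers, 2 were called lower and 0 higher. The lower fibroblast sum was carried mainly by Col1a1 and Col3a1. Col1a1 was at 73.0 to 126 CPM in controls and 5.42 to 56.1 CPM in tumor mice. Col3a1 was at 154 to 244 CPM and 10.1 to 79.1 CPM. Pi16 (13.7 to 17.8 CPM, 2.99 to 6.65) did not overlap either, while Dcn (134 to 164 CPM, 135 to 198) and Pdgfra (12.5 to 16.9 CPM, 13.0 to 19.4) did. Neutrophil markers summed to at most 0.579 CPM in controls and 1.38 to 5.20 CPM in tumor mice, with Ly6g at 0 throughout. The sums of macrophage, adipocyte, red cell and Schwann cell markers overlapped between the groups, although 1 of 8 macrophage markers, Cd163, was called higher (3.33 to 5.96 CPM in controls, 8.21 to 12.7 in tumor mice; edgeR adjusted p = 0.0113). The part of these lists in the results below was not tested, and in bulk tissue fewer cells of a type and less RNA per cell cannot be told apart.

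Of the 63 genes, 12 were higher and 4 lower in tumor mice at a Benjamini-Hochberg adjusted p below 0.05 over all 14070 genes (quasi-likelihood F test of edgeR). These 16 are 25.4% of the genes, against 19.8% of all genes tested (2781), where 11% were higher and 8.73% lower. The higher genes were Ggt6, Gstm2, Txnl1, Txn1, Sod1, Nfe2l2, Gstm1, Keap1, Gstp2, Gclc, Gstm5 and Txndc9, and the lower ones Gsta4, Sod2, Glrx and Glrx5. Ggt6 met the count floors only through the tumor group and is counted in these shares. The median log2 fold change over the 63 was 0.04, against 0.00 over all genes, and 33 values were positive and 30 negative. The control and tumor values did not overlap in 20 of the 63 genes (31.7%), against 25% of all genes. With upper-quartile scaling the split was 7 higher and 8 lower. In that fit 19.3% of all genes were called (1169 higher and 1547 lower in place of 1552 and 1229). DESeq2 size factors gave 12 higher and 4 lower, with 19.4% of all genes called. Scaling without the 50 most abundant and mitochondrial genes gave 12 and 5, also with 19.4%. The excess of higher over lower genes was thus lost with upper-quartile scaling and kept with the other scalings.

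Leaving out single libraries changed the count more than the direction: the fitted sign of the 16 genes held in all 19 alternatives (18 for Ggt6, which the stricter count filter left out). Leaving out control library 1 gave 5 higher and 0 lower genes, control library 2 gave 6 and 1, control library 4 gave 7 and 3, tumor library 3 gave 6 and 1, and tumor library 2 gave 9 and 8. The share of all genes called moved too, to 7.75% when control library 1 was dropped, 9.58% for control library 2, 15.8% for control library 4, 8.3% for tumor library 3 and 19.4% for tumor library 2, where all genes also turned to 1331 higher and 1450 lower. Without control library 4 and tumor library 2 together, 9 genes were higher and 8 lower (20.7% of all genes called), with 12 of the 16 among them and Gpx1, Gsta3, Gstz1, Mgst1 and Prdx3 added as lower. In that fit 8 of 8 adipocyte and 4 of 8 fibroblast markers were also called lower (0 and 2 with all 8 libraries). Their part in the added genes was not tested. Upper-quartile scaling ended the calls of Gclc, Gstm5, Gstp2, Txn1 and Txndc9 and added Gpx1, Prdx2, Prdx3 and Sod3 as lower. Dropping the count filter ended those of Gclc, Gstm5 and Txndc9, limma-voom those of Ggt6 and Txn1, the myosin ratio as covariate those of Gclc and Txn1, and leaving out control library 4 and tumor library 2 together those of Gclc, Glrx5, Txn1 and Txndc9. Gstm1, Gstm2, Keap1 and Txnl1 passed in all 19 alternatives, and with Ggt6 they are the 5 genes that passed with each library left out in turn. For Ggt6 this follows in part from how it was admitted, since it met the count floors only through the tumor group. For genes not called with all 8 libraries, left-out fits that passed are named below. Where the library left out held the value nearest the other group, the pass follows in part from that choice and is no further result.

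**Figure D1:**
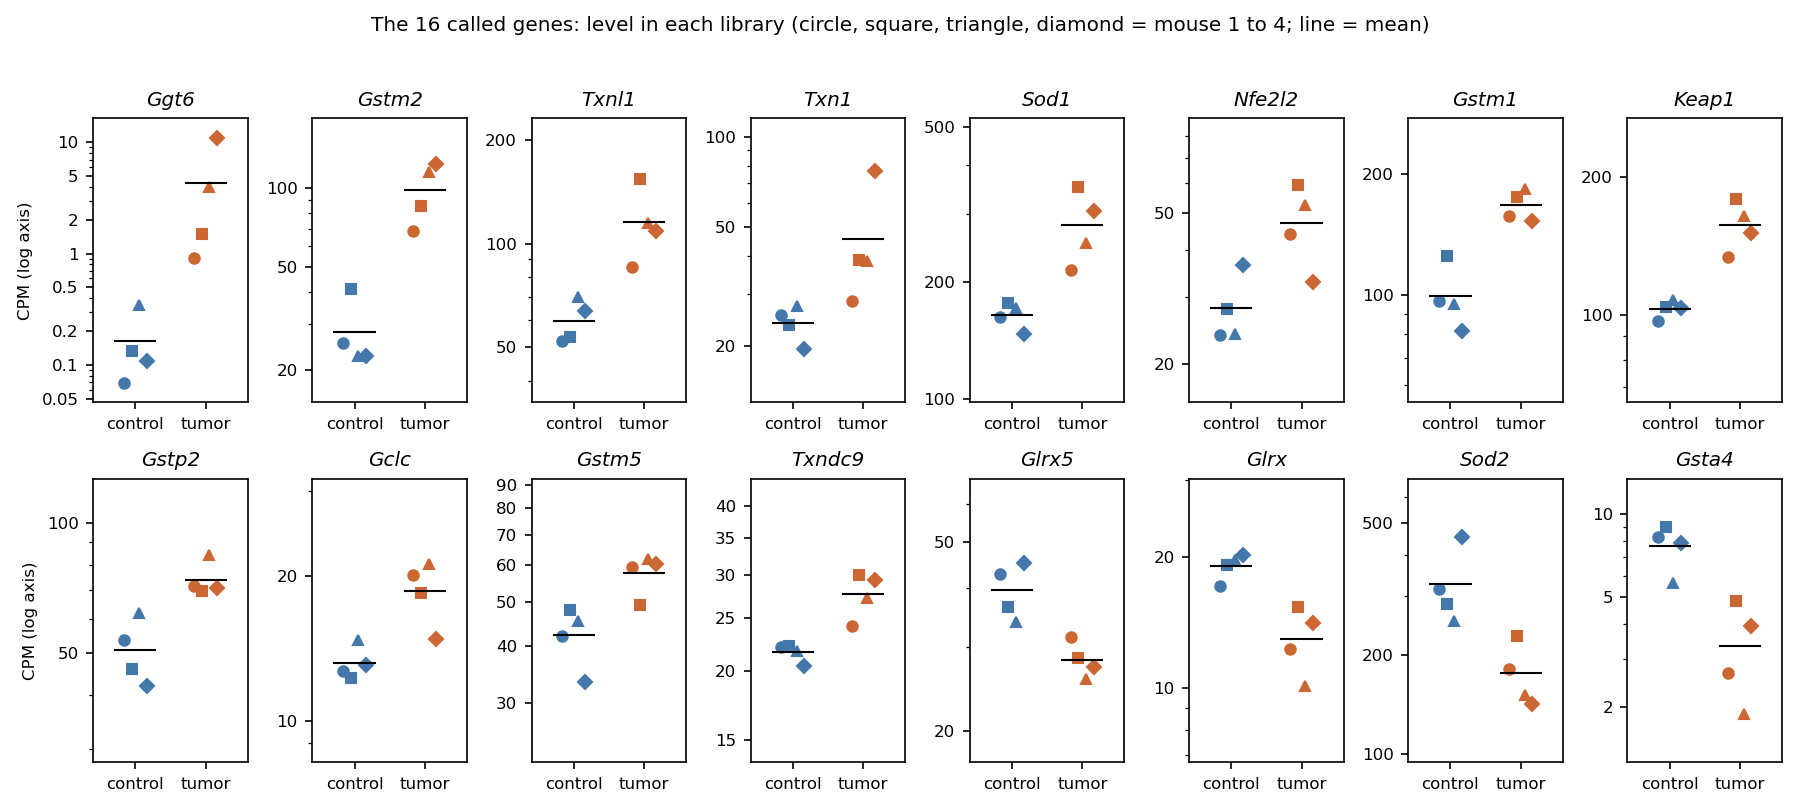
Level of each of the 16 called genes in every library, in CPM on a log axis, controls in blue and tumor mice in orange, with a line at the group mean. The groups do not overlap except in Nfe2l2, where control 4 (36.6 CPM) lies above tumor 4 (33.0 CPM).

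**Figure D2:**
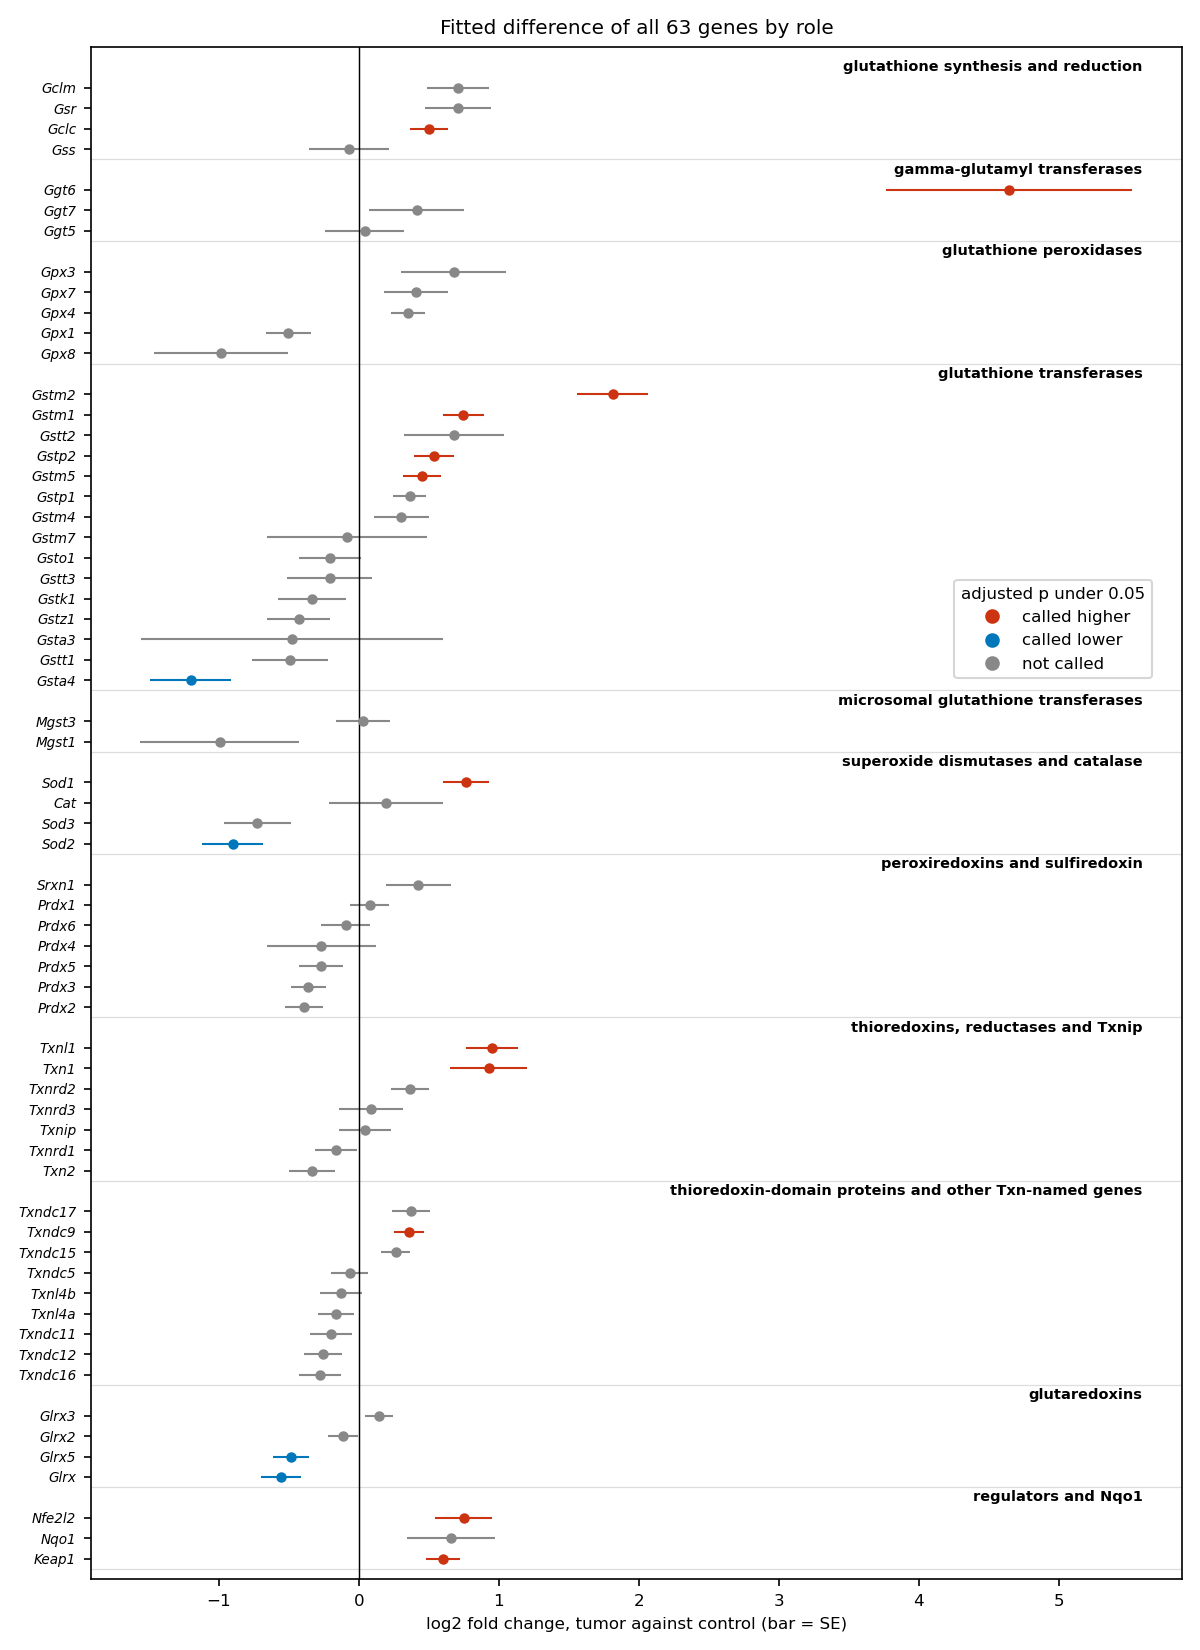
Fitted log2 fold change (tumor against control, bar = SE) of all 63 genes, grouped by role. Within most roles genes lie on both sides of 0, from Gsta4 at -1.20 to Ggt6 at 4.65.

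Glutathione synthesis starts with glutamate-cysteine ligase, made of the catalytic subunit Gclc and the modifier Gclm, and is completed by the synthetase Gss. Of the 4 genes of synthesis and reduction, edgeR called Gclc higher and not the other 3 (19.8% of all genes called). DESeq2 (26% of all genes called) and limma-voom with quality weights (35.4%) called 3 (Gclc, Gclm and Gsr) higher. Gclc was at 12.7, 12.3, 14.7 and 13.1 CPM in control libraries 1 to 4 and 20.1, 18.5, 21.2 and 14.8 CPM in tumor libraries 1 to 4, and tumor library 4 was level with the highest control. The log2 fold change of Gclc was 0.50 ± 0.14 (SE; edgeR adjusted p = 0.032), and of the fits with 1 library left out it passed 2, missing when control library 1, 2 or 4 or tumor library 1, 2 or 3 was left out (edgeR adjusted p 0.0516 to 0.099). Gclm, at 17.9, 20.8, 30.0 and 23.6 CPM in controls and 26.7, 52.9, 37.5 and 33.8 CPM in tumor mice, had a log2 fold change of 0.71 ± 0.22 (edgeR adjusted p = 0.0515). Here tumor library 1 lay below control library 3, and the gene passed without tumor library 1 (edgeR adjusted p = 0.0275) or without control library 3 (0.0423). It passed only these 2 of the 8 fits with 1 library left out, and both removed an overlapping value. In the other left-out fits the edgeR adjusted p of Gclm was 0.0652 to 0.144. Gss stayed within its spread, at 3.24, 3.51, 3.33 and 5.65 CPM and 2.60, 3.47, 3.34 and 5.54 CPM. For Gsr, glutathione reductase, the values were 21.1, 18.9, 31.3 and 31.7 CPM in controls and 27.5, 55.1, 43.0 and 42.7 CPM in tumor mice, with a log2 fold change of 0.71 ± 0.24 (edgeR adjusted p = 0.0625). Gsr passed without tumor library 1, the lowest tumor value, with an edgeR adjusted p of 0.0243. It passed only this 1 of the 8 fits with 1 library left out. In the others the edgeR adjusted p was 0.059 to 0.167.

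The balance of the ligase subunits was compared within libraries, where scaling cancels. The log2 ratio of Gclc to Gclm was -0.50, -0.76, -1.03 and -0.85 in controls and -0.41, -1.52, -0.82 and -1.19 in tumor mice, a difference of -0.20 (two-sided exact permutation p = 0.486, n = 4 each). With 4 against 4 libraries the smallest p this test can give is 0.0286, and tumor values lay on both sides of the controls. Dropping tumor library 1 gave a difference of -0.39, tumor library 2 of -0.02 and control library 1 of -0.11.

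Gamma-glutamyl transferases split the bond that holds glutathione together, and Ggt6 is a member of this family by sequence. Ggt6 met the count floors only through the tumor group, so that it differed between the groups follows in part from how it was admitted. It was at 0.0696, 0.132, 0.347 and 0.109 CPM in controls, 21 counts in all 4 libraries together against 579 in the tumor libraries, and at 0.922, 1.49, 3.98 and 10.9 CPM in tumor mice. The groups did not overlap, and tumor values spread widely, from the lowest in library 1 to the highest in library 4. Its log2 fold change was 4.65 ± 0.88 (edgeR adjusted p = 0.00859), with 3.63 without tumor library 4 and 5.33 without control library 3. The limma-voom test did not call it (adjusted p = 0.0807). Ggt5 and Ggt7, the other 2 transferases measured, had log2 fold changes of 0.04 ± 0.28 and 0.41 ± 0.34 and did not pass.

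Cytosolic glutathione transferases conjugate glutathione to reactive compounds, and the mu class (Gstm) is the one with most members in these libraries. Of 15 transferases, 4 rose and 1 fell (33.3% called, against 19.8% of all genes), and their median log2 fold change was -0.08. Gstm2 was at 25.5, 41.1, 22.6 and 22.6 CPM in controls and 68.5, 85.3, 116 and 124 CPM in tumor mice. Every tumor value was above the highest control, in library 2, which itself stood apart from the other controls. The log2 fold change of Gstm2 was 1.81 ± 0.25 (edgeR adjusted p = 0.00355, and at most 0.0202 in all alternatives), a rise of 3.51-fold from 28.0 ± 8.88 to 98.3 ± 25.9 CPM (SD, n = 4). Gstm1, the highest of the class per transcript length, was at 96.9, 125, 95.3 and 81.4 CPM in controls and 157, 176, 183 and 153 CPM in tumor mice, again without overlap. Gstm1 rose by a log2 fold change of 0.75 ± 0.15 (edgeR adjusted p = 0.00992).

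The ratio of Gstm2 to Gstm1, a description chosen after the values were seen, was -1.92, -1.60, -2.08 and -1.85 on the log2 scale in controls and -1.20, -1.04, -0.66 and -0.31 in tumor mice. The mean difference was 1.06 and the groups did not overlap. Gstm1, Gstm2, Gstm4, Gstm5 and Gstm7 lie in a cluster on chromosome 3, and the transcripts of Gstm1 and Gstm2 share 11 words of 50 bases (0.887% and 1.08% of each), so few reads could be exchanged between these 2 genes.

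Gstm5, at 42.2, 47.8, 45.3 and 33.4 CPM in controls and 59.4, 49.1, 61.9 and 60.5 CPM in tumor mice, had a log2 fold change of 0.45 ± 0.14 (edgeR adjusted p = 0.046). It passed only when tumor library 2, its lowest tumor value, was left out, and missed when control library 1, 2, 3 or 4 or tumor library 1, 3 or 4 was left out (edgeR adjusted p 0.0649 to 0.125). Gstm4 (mean 8.78 and 10.9 CPM) and Gstm7 (mean 1.73 and 1.62 CPM) did not pass. Of the pi class, Gstp2 was at 53.6, 46.0, 62.0 and 42.0 CPM in controls and 71.2, 69.5, 84.2 and 70.5 CPM in tumor mice, with a log2 fold change of 0.54 ± 0.14 (edgeR adjusted p = 0.0284). Its call was missed when control library 1, 2 or 4 or tumor library 3 was left out (edgeR adjusted p 0.0579 to 0.0903). Gstp1, at 93.3, 108, 108 and 85.7 CPM and 122, 124, 132 and 131 CPM, did not overlap between the groups and missed the threshold at a log2 fold change of 0.36 ± 0.12 (edgeR adjusted p = 0.0532; limma-voom 0.0473). Transcripts of Gstp1 and Gstp2 share 62.3% and 64.3% of their 50-base words, so how their reads were divided is uncertain.

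Gsta4 went the other way. This alpha-class enzyme conjugates aldehydes of lipid peroxidation. It was at 8.25, 8.97, 5.64 and 7.86 CPM in controls and 2.67, 4.84, 1.90 and 3.93 CPM in tumor mice, every tumor value below every control, and fell 2.30-fold (log2 fold change -1.20 ± 0.29, edgeR adjusted p = 0.0207). The call was missed when control library 1 or 2 was left out (edgeR adjusted p 0.0614 to 0.0651). The kappa, omega and zeta members did not pass. Gstk1, of mitochondria and peroxisomes, was at 14.0, 15.5, 16.4 and 19.2 CPM in controls and 13.9, 15.8, 15.1 and 6.75 CPM in tumor mice, where library 4 was lowest. Gstz1, of tyrosine breakdown, had a log2 fold change of -0.43 ± 0.23 (edgeR adjusted p = 0.208), and passed at -0.79 (0.00979) without control library 4 and tumor library 2 together. Gsto1 was at 34.7 CPM in control library 4 and 17.0 to 20.8 CPM in the other 7 libraries. The theta genes Gstt1, Gstt2 and Gstt3 and the alpha gene Gsta3 averaged under 5 CPM in both groups and did not pass. Neither did the microsomal Mgst1 and Mgst3, with 0 called and 0 at an unadjusted p under 0.05 in edgeR. DESeq2 (26% of all genes called) and limma-voom (19.7%) called 0, and limma-voom with quality weights (35.4%) called 1 (Mgst1, lower).

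Glutathione peroxidases reduce peroxides at the expense of glutathione. Of the 5 measured, edgeR called 0, with 2 (Gpx1 and Gpx4) at an unadjusted p under 0.05. DESeq2 called both (26% of all genes called) and limma-voom called 0 (19.7%). With quality weights limma-voom called 1 higher (Gpx4) and 2 lower (Gpx1 and Gpx8), with 35.4% of all genes called in that fit. Gpx4, which protects membranes from lipid peroxides, was at 273, 238, 227 and 276 CPM in controls and 332, 299, 331 and 334 CPM in tumor mice, without overlap, with a log2 fold change of 0.35 ± 0.12 (edgeR adjusted p = 0.0658). Gpx1, the main cytosolic form, was at 48.6, 51.7, 53.1 and 31.8 CPM and 33.8, 32.4, 30.1 and 34.3 CPM. Control library 4 alone lay inside the tumor range, and without it the log2 fold change moved from -0.50 ± 0.16 (edgeR adjusted p = 0.0537) to -0.65 (edgeR adjusted p = 0.00889). Gpx1 passed only this 1 of the 8 fits with 1 library left out. In the others the edgeR adjusted p was 0.0663 to 0.145. Gpx3, the secreted plasma form, was at 225, 278, 181 and 306 CPM in controls and 465, 643, 326 and 148 CPM in tumor mice, where libraries 1 to 3 lay above every control and library 4 below them. Its log2 fold change was 0.68 ± 0.38 (edgeR adjusted p = 0.233), and 0.94 (edgeR adjusted p = 0.0367) without tumor library 4. Without tumor library 2, its highest tumor value, the log2 fold change was 0.30 (edgeR adjusted p = 0.569). Of the 8 fits with 1 library left out, Gpx3 passed only the 1 without tumor library 4. The reticulum forms Gpx7 and Gpx8 were at 2.75 to 6.55 CPM and 1.03 to 9.66 CPM over the libraries and did not pass.

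Of the 3 superoxide dismutases, Sod1 rose, Sod2 fell and Sod3 did not pass. Sod1, the copper and zinc enzyme of the cytosol, was at 162, 177, 172 and 148 CPM in controls and 215, 351, 252 and 305 CPM in tumor mice, every tumor value above every control. It rose by a log2 fold change of 0.77 ± 0.16 (edgeR adjusted p = 0.0128), and without control library 1 the edgeR adjusted p was 0.05004. Sod2, the manganese enzyme of mitochondria, was at 316, 285, 253 and 455 CPM in controls and 181, 227, 151 and 141 CPM in tumor mice, again without overlap. It fell 1.87-fold (log2 fold change -0.90 ± 0.22, edgeR adjusted p = 0.021), a call missed when control library 1 or tumor library 3 was left out (edgeR adjusted p 0.0587 to 0.0733). The log2 ratio of Sod1 to Sod2, described without a test because it was chosen after the values were seen, was -0.96, -0.69, -0.56 and -1.62 in controls and 0.25, 0.63, 0.74 and 1.11 in tumor mice. The control mean was -0.96 ± 0.48 and the tumor mean 0.68 ± 0.36 (SD, n = 4 each), without overlap. CPM are not divided by transcript length here, so only the shift between the groups can be read from such a ratio. Sod3, the extracellular enzyme, was at 20.9, 18.4, 12.3 and 17.2 CPM and 7.51, 13.3, 7.68 and 13.1 CPM, and did not pass at a log2 fold change of -0.72 ± 0.24 (edgeR adjusted p = 0.0594). It passed without control library 3 (0.0475) or tumor library 2 (0.0389), each of which held the value nearest the other group. Of the 8 fits with 1 library left out, Sod3 passed only these 2. Of the markers given above, Pecam1, Vwf, Dcn and Pdgfra overlapped between the groups. The endothelial marker sum, Kdr, Emcn, Tek, Cdh5, the collagen markers and Pi16 were lower in tumor mice, without overlap. Their part in the Sod3 value was not tested.

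**Figure D3:**
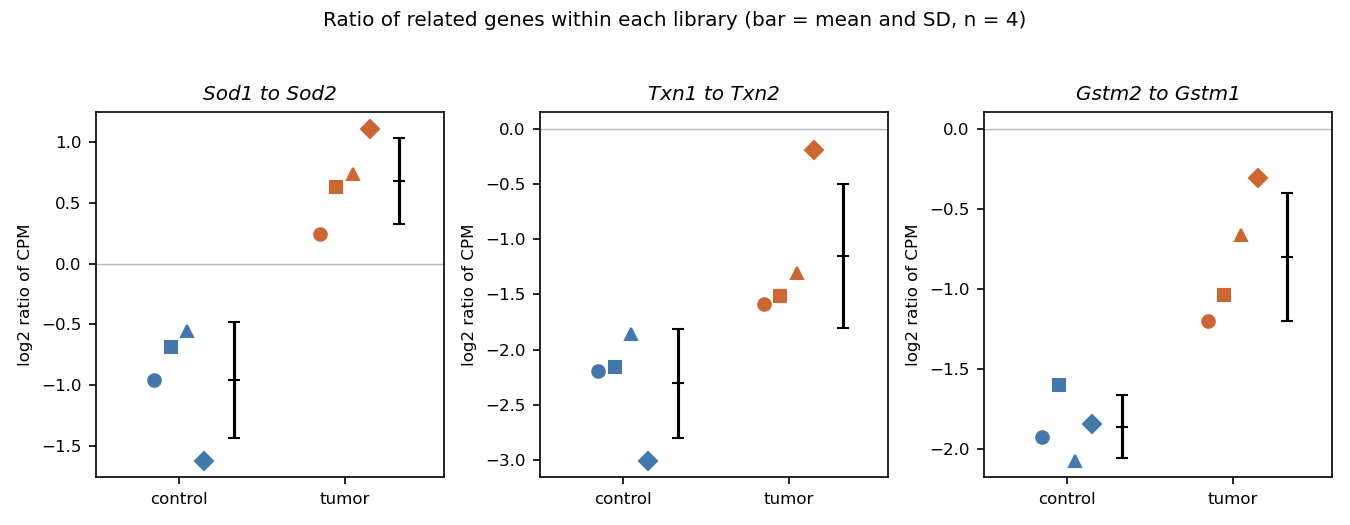
Log2 ratio of CPM of Sod1 to Sod2, Txn1 to Txn2 and Gstm2 to Gstm1 in each library, with mean and SD (n = 4) at the right of each group; symbols mark libraries 1 to 4. In all 3 panels the tumor values lie above the control values, and for Sod1 to Sod2 the gap runs from -0.56 to 0.25.

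Catalase (Cat), the peroxide-removing enzyme of peroxisomes, was at 91.1, 99.8, 80.9 and 208 CPM in controls and 86.1, 259, 95.1 and 109 CPM in tumor mice. The high values were those of control library 4 and tumor library 2, the 2 libraries with the lowest Myh4 share, and the other 6 lay between 80.9 and 109 CPM. Catalase did not pass, with a log2 fold change of 0.19 ± 0.41 (edgeR adjusted p = 0.773) and of -0.35 without tumor library 2. Mgst1, a microsomal transferase and peroxidase, followed the same libraries in part: it was at 26.8, 24.9, 14.7 and 40.5 CPM in controls and 6.12, 33.6, 5.72 and 8.30 CPM in tumor mice. In Mgst1 tumor libraries 1, 3 and 4 lay below every control and tumor library 2 among the controls. Its log2 fold change of -0.99 ± 0.57 (edgeR adjusted p = 0.245) was -1.73 without control library 4 and tumor library 2 (edgeR adjusted p = 0.00619). Gsto1 and Gss were high in control library 4 but not in tumor library 2. The adipocyte marker sum was 837, 1370, 444 and 180.0 CPM in controls and 178, 1172, 134 and 109 CPM in tumor mice. In the fit without control library 4 and tumor library 2, all 8 adipocyte markers were called lower as well (0 of 8 with all libraries), and their part in the Mgst1 value was not tested.

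**Figure D4:**
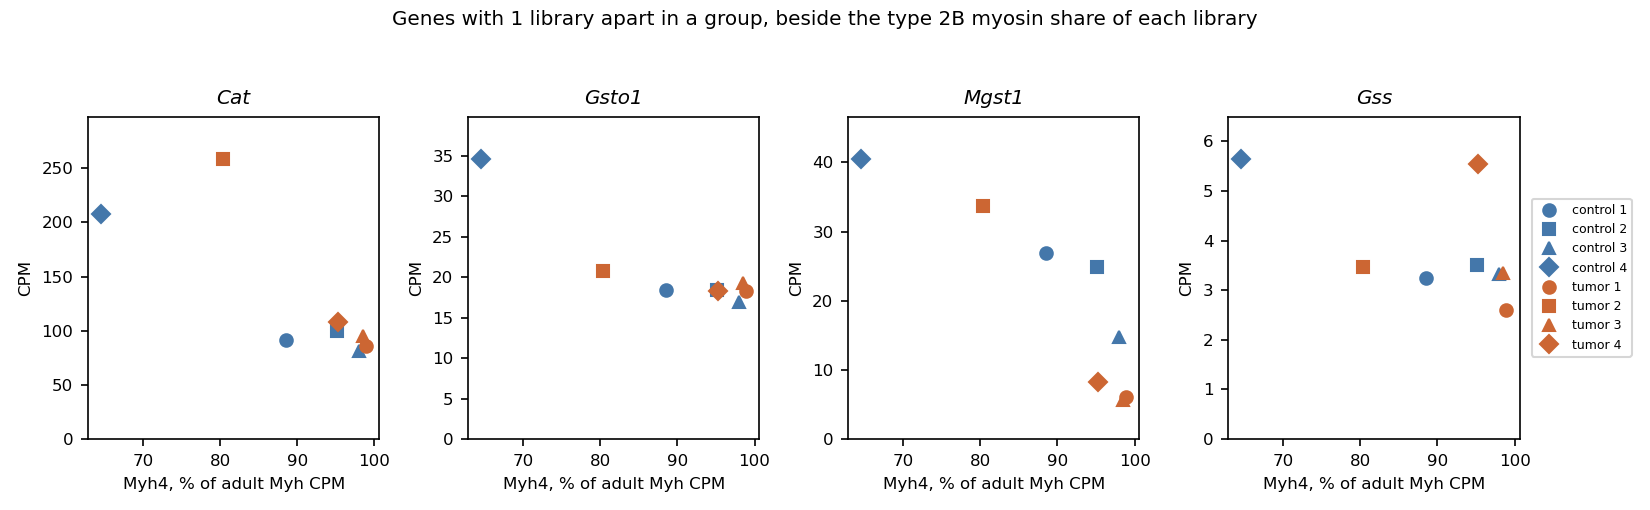
CPM of Cat, Gsto1, Mgst1 and Gss in each library against the share of Myh4 in adult myosin heavy chain CPM (percent), controls in blue and tumor mice in orange. Cat is highest in control 4 (64.6% Myh4) and tumor 2 (80.3%), while Gss is also high in tumor 4 (95.2%).

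Peroxiredoxins reduce hydrogen peroxide with electrons from thioredoxin, and sulfiredoxin (Srxn1) restores them when over-oxidised. Of these 7 genes edgeR called 0, with 2 (Prdx2 and Prdx3) at an unadjusted p under 0.05. DESeq2 called both as lower (26% of all genes called), and limma-voom called 0 (19.7%). Both were also called lower by limma-voom with quality weights (35.4% of all genes called), with upper-quartile scaling (19.3%) and with the stricter count filter (26.2%). Prdx2, abundant in the cytosol and in red cells, was at 61.1, 51.5, 51.7 and 73.6 CPM in controls and 47.0, 46.7, 40.8 and 46.9 CPM in tumor mice. All tumor values were below all controls, with a log2 fold change of -0.39 ± 0.14 (edgeR adjusted p = 0.0721). Prdx3, the mitochondrial form, was at 90.5, 85.4, 79.4 and 94.5 CPM and 70.9, 79.6, 62.5 and 59.6 CPM, where tumor library 2 overlapped control library 3. Prdx3 had a log2 fold change of -0.36 ± 0.12 (edgeR adjusted p = 0.0689), with 0.0282 without tumor library 2. It passed only this 1 of the 8 fits with 1 library left out. Prdx1 (0.08 ± 0.14), Prdx4 (-0.27 ± 0.39), Prdx5 (-0.27 ± 0.16) and Prdx6 (-0.09 ± 0.17) did not pass (log2 fold change ± SE in brackets). Srxn1, an Nrf2 target, was at 25.9, 21.0, 28.5 and 31.7 CPM in controls and 22.7, 47.1, 30.1 and 43.9 CPM in tumor mice, where libraries 2 and 4 were above every control (edgeR adjusted p = 0.22).

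Thioredoxins are small disulfide reductases. Txn1, the cytosolic form, was at 25.5, 23.5, 27.3 and 19.6 CPM in controls and 28.3, 38.8, 38.6 and 76.7 CPM in tumor mice. Each tumor value was above every control, library 1 by little and library 4 by far the most. Its log2 fold change was 0.93 ± 0.28 (edgeR adjusted p = 0.0433), 0.55 without tumor library 4, and the call was missed when control library 1, 2, 3 or 4 or tumor library 2, 3 or 4 was left out (edgeR adjusted p 0.0502 to 0.0993). Txnl1, a thioredoxin-like protein that binds the proteasome, was at 52.0, 53.4, 69.7 and 63.8 CPM in controls and 85.3, 154, 115 and 109 CPM in tumor mice, also without overlap. Txnl1 rose by a log2 fold change of 0.95 ± 0.19 (edgeR adjusted p = 0.00934) and it passed in every alternative. Txn2, the mitochondrial thioredoxin, was at 117, 105, 99.4 and 157 CPM and 85.2, 111, 95.8 and 87.7 CPM and did not pass (log2 fold change -0.33 ± 0.17, edgeR adjusted p = 0.182). The log2 ratio of Txn1 to Txn2, a description chosen after the values were seen, was -2.20, -2.16, -1.86 and -3.01 in controls and -1.59, -1.52, -1.31 and -0.19 in tumor mice.

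The reductases that recharge thioredoxin did not pass: Txnrd1 (cytosolic) had a log2 fold change of -0.16 ± 0.15, Txnrd2 (mitochondrial) of 0.37 ± 0.14 and Txnrd3 of 0.09 ± 0.23. Txnrd2 passed without tumor library 1, its lowest tumor value (edgeR adjusted p = 0.0363), and in no other of the 8 fits with 1 library left out. Txnip binds and inhibits thioredoxin and limits glucose uptake. It was at 464, 516, 539 and 387 CPM in controls and 556, 469.6, 580.2 and 357 CPM in tumor mice, with the lowest value of each group in library 4. The log2 ratio of Txnip to Txn1 was 4.19, 4.46, 4.30 and 4.31 in controls and 4.30, 3.60, 3.91 and 2.22 in tumor mice. Tumor library 1 lay among the controls and the other 3 below them. The difference of means was -0.81 (4.31 ± 0.11 against 3.51 ± 0.90, SD, n = 4; two-sided exact permutation p = 0.0571, Benjamini-Hochberg adjusted over the 2 ratios tested 0.114). It was -1.07 without tumor library 1 (exact permutation p = 0.0286, unadjusted) and -0.38 without tumor library 4 (exact permutation p = 0.0571, unadjusted). Leaving out tumor library 1 removed the only tumor value among the controls. The p of that comparison was fixed by this choice and is no further result.

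Of the 9 other thioredoxin-domain and Txn-named genes, Txndc9 rose (11.1% called, against 19.8% of all genes). Txndc9 binds the chaperonin that folds actin and tubulin. It was at 22.1, 22.2, 21.8 and 20.4 CPM in controls and 24.2, 30.0, 27.2 and 29.4 CPM in tumor mice, with no overlap and a small log2 fold change of 0.36 ± 0.11 (edgeR adjusted p = 0.0439). The call was missed when control library 1, 2, 3 or 4 or tumor library 2, 3 or 4 was left out (edgeR adjusted p 0.0845 to 0.106). Txndc17 (0.37 ± 0.14) and Txndc15 (0.26 ± 0.11) had positive log2 fold changes that did not pass, and the other 6 lay between -0.28 and -0.07.

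Glutaredoxins use glutathione to release it from proteins, and some carry iron-sulfur clusters. Of the 4 genes, 2 fell and 0 rose (50% called, against 19.8% of all genes). Glrx, the cytosolic form, was at 17.2, 19.1, 19.7 and 20.1 CPM in controls and 12.3, 15.3, 10.1 and 14.1 CPM in tumor mice, with the lowest tumor value in library 3. It fell 1.47-fold (log2 fold change -0.56 ± 0.14, edgeR adjusted p = 0.0263), a call missed when control library 1, 2, 3 or 4 or tumor library 3 was left out (edgeR adjusted p 0.0553 to 0.0696). Glrx5, which hands on iron-sulfur clusters in mitochondria, was at 42.8, 36.4, 33.8 and 45.2 CPM and 31.4, 28.4, 25.8 and 27.3 CPM, again without overlap. It fell 1.40-fold (log2 fold change -0.49 ± 0.13, edgeR adjusted p = 0.0268), a call missed when control library 1, 2 or 4 or tumor library 3 was left out (edgeR adjusted p 0.0541 to 0.0895). Glrx2 (-0.11 ± 0.11) and Glrx3 (0.15 ± 0.10) did not pass.

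Both regulators rose. Keap1 was at 97.2, 104, 108 and 104 CPM in controls and 134, 179, 164 and 151 CPM in tumor mice, every tumor value being above the highest control. Keap1 rose by a log2 fold change of 0.60 ± 0.12 (edgeR adjusted p = 0.0102, and at most 0.0452 in all alternatives). Nfe2l2 was at 23.8, 27.9, 24.0 and 36.6 CPM in controls and 44.1, 59.4, 52.5 and 33.0 CPM in tumor mice, where tumor library 4 lay below control library 4. Its log2 fold change was 0.75 ± 0.20 (edgeR adjusted p = 0.0314), and the call was missed when control library 1, 2 or 3 or tumor library 2 or 3 was left out (edgeR adjusted p 0.0703 to 0.0993). The mean log2 ratio of Keap1 to Nfe2l2 was 1.90 ± 0.29 for controls against 1.76 ± 0.29 for tumor mice (SD, n = 4), with overlap. Nqo1, a quinone reductase and a standard readout of Nrf2 activity, was at 15.7, 13.2, 24.4 and 22.7 CPM and 16.4, 26.5, 28.5 and 48.5 CPM. It did not pass at a log2 fold change of 0.66 ± 0.32 (edgeR adjusted p = 0.169), with tumor library 4 highest and tumor library 1 within the controls.

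**Figure D5:**
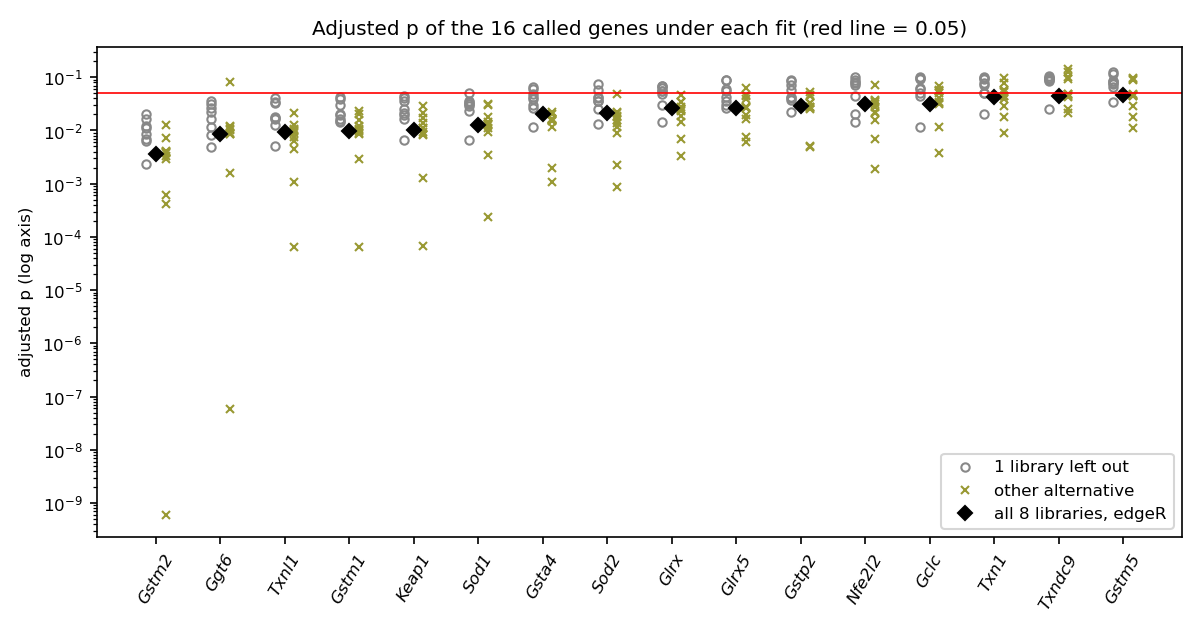
Adjusted p (log axis) of each of the 16 called genes with all 8 libraries in edgeR (black diamonds), with 1 library left out (grey circles) and under the other alternatives (olive crosses); the red line marks 0.05. For Gstm2, Txnl1, Gstm1 and Keap1 all points lie below the line, and for 11 genes at least 1 grey circle lies above it.

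Grouped by where the enzyme works, a grouping made after the values were seen and given without a test, the 8 genes whose proteins act mainly in mitochondria (Sod2, Prdx3, Prdx5, Txn2, Txnrd2, Glrx2, Glrx5 and Gstk1) held 0 higher and 2 lower calls (25%, against 19.8% of all genes). Of these 8, 7 had a negative log2 fold change (all but Txnrd2), with a median of -0.34, and each of these signs held in all 19 alternatives. The other 55 genes held 12 higher and 2 lower calls and a median of 0.09. Levels between genes were compared per kilobase of transcript, by the median coding transcript of a GENCODE annotation of build GRCm38. On this scale the highest control means were Gpx3 (298.5 CPM per kilobase), Gpx4 (264) and Sod1 (257), and the highest tumor means Gpx3 (477), Sod1 (438) and Gpx4 (338). Sod2 went from 104 to 55.5 CPM per kilobase and Gstm2 from 29.2 to 102.5, while Ggt6 had the lowest control level of all 63 genes (0.119).

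Other genes of the pathway were counted from lists, to be read against the 11% of all genes that were higher and the 8.73% that were lower. Where a library is dropped below, the share of all genes called falls as well, as given above for control libraries 1, 2 and 4 and tumor libraries 2 and 3, and to 12.9% for control library 3 and 18.5% for tumor library 4. Of 18 further Nrf2 targets, 4 rose and 0 fell (median log2 fold change 0.19). Abcc1, an exporter of glutathione conjugates, was at 38.9, 44.0, 44.3 and 47.4 CPM in controls and 64.3, 83.1, 87.9 and 88.0 CPM in tumor mice (log2 fold change 0.89 ± 0.13, edgeR adjusted p = 0.00399). Sqstm1, an autophagy receptor that binds Keap1, was at 439.7, 462, 644 and 530.5 CPM and 827, 1239, 1014 and 1003 CPM (log2 fold change 0.98 ± 0.18, edgeR adjusted p = 0.00804). Both passed in every alternative, without overlap between the groups. Fth1, the ferritin heavy chain, and Slc48a1, a heme transporter, passed with log2 fold changes of 0.64 ± 0.18 and 0.36 ± 0.11 (edgeR adjusted p = 0.0331 and 0.0472). The Fth1 call ended with upper-quartile scaling (0.0526), with no count filter (0.0641), and when any 1 control library or tumor library 3 was dropped (0.0622 to 0.108). That of Slc48a1 ended with each other scaling (0.0527 to 0.0863), with no count filter (0.131), without control library 4 and tumor library 2 together (0.0805), and when any 1 library but tumor library 1 was dropped (0.0642 to 0.135). Dropping any 1 control library or tumor library 3 left 2 higher genes in the list. The other 14 targets did not pass.

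Among 16 tested regulators around Keap1 and Nrf2, 4 rose and 0 fell (median 0.47). One is Sqstm1, which stands in both lists. Gsk3b, a kinase that promotes Nrf2 degradation, was at 78.7, 89.2, 112 and 97.8 CPM in controls and 165, 204, 184 and 104 CPM in tumor mice, with tumor library 4 near the controls (log2 fold change 0.80 ± 0.21, edgeR adjusted p = 0.0261). Bach2, a repressor that competes for related elements, and Mafk, a small Maf partner of Nrf2, had log2 fold changes of 0.98 ± 0.26 and 1.05 ± 0.31 (edgeR adjusted p = 0.0288 and 0.0407). Sqstm1 was the 1 call left without control libraries 1 or 2 or tumor library 3, 2 were left without tumor library 2, and 1 gene fell without tumor library 4.

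Of 20 tested genes of glutathione supply, transport and turnover, 3 rose and 3 fell (median -0.21, range -1.85 to 1.54). The naming rule took the 4 called genes with the smallest p, so all the lower genes are named below but not all the higher ones. Slc25a10, a mitochondrial dicarboxylate carrier, was at 10.2, 13.8, 6.34 and 3.26 CPM in controls and 1.88, 2.30, 1.67 and 3.42 CPM in tumor mice (log2 fold change -1.85 ± 0.42, edgeR adjusted p = 0.0165), and Slc25a39, the mitochondrial glutathione importer, had a log2 fold change of -0.63 ± 0.16 (edgeR adjusted p = 0.0266). Control library 4 lay among the tumor values for Slc25a10. Slc25a40, a related carrier in the list, did not pass (log2 fold change -0.40 ± 0.32, edgeR adjusted p = 0.404). Ggct, which opens gamma-glutamyl dipeptides, was the other lower gene (log2 fold change -0.56 ± 0.15, edgeR adjusted p = 0.0299), and Cndp2, a dipeptidase that splits cysteinylglycine, rose from 15.3, 15.0, 17.7 and 14.2 CPM to 18.4, 26.3, 24.7 and 30.8 CPM (log2 fold change 0.69 ± 0.16, edgeR adjusted p = 0.0185). Higher and lower genes numbered 0 and 0 when control library 1 or tumor library 3 was dropped (7.75% and 8.3% of all genes called), 0 and 1 for control library 2, 1 and 1 for control library 4, 1 and 4 for tumor library 2, and 1 and 3 for tumor library 4.

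None of 18 genes of NADPH supply passed in edgeR, with 0 at an unadjusted p under 0.05 (median -0.21). DESeq2 (26% of all genes called) and limma-voom (19.7%) called 0, and limma-voom with quality weights (35.4%) called 2 lower. Me3, a mitochondrial malic enzyme, and Rpia, of the pentose phosphate pathway, had the smallest p (log2 fold change -0.49 ± 0.24 and -0.36 ± 0.19, edgeR adjusted p = 0.178 and 0.209). Of 17 tested oxidant sources, 1 fell and 0 rose. This was Maob, a monoamine oxidase of the outer mitochondrial membrane that makes hydrogen peroxide, at 24.4, 26.1, 18.1 and 21.7 CPM in controls and 11.9, 15.7, 7.94 and 8.18 CPM in tumor mice (log2 fold change -1.05 ± 0.23, edgeR adjusted p = 0.0137), and it passed in every alternative. Another source fell without tumor libraries 1 or 2, and 1 rose without tumor libraries 2 or 4. Of the NADPH genes, 1 fell without tumor library 2.

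Selenium links several of these genes, since Gpx1, Gpx3, Gpx4 and the thioredoxin reductases carry selenocysteine. Among 14 other selenoproteins tested, 1 rose and 4 fell (median -0.16, range -1.69 to 0.57). The naming rule took the 4 called genes with the smallest p, so not all the lower genes are named. Msrb1, which repairs oxidised methionine, was at 102, 103, 108 and 84.5 CPM in controls and 63.6, 52.1, 49.6 and 38.4 CPM in tumor mice, and fell 1.95-fold (log2 fold change -0.96 ± 0.16, edgeR adjusted p = 0.0054), a call kept in every alternative. Selenon, mutated in a congenital muscle disease, and Selenoh, a nucleolar protein, fell with log2 fold changes of -0.95 ± 0.26 and -0.77 ± 0.22 (edgeR adjusted p = 0.032 and 0.039), and Selenos, of the reticulum, rose (0.57 ± 0.17, edgeR adjusted p = 0.0426). Dropping any control library or tumor library 3 left 1 lower gene, and dropping tumor library 1 or 4 left 2. Selenos was no longer called when control library 1, 2 or 3 or tumor library 2, 3 or 4 was dropped. Of 10 tested genes of selenocysteine insertion, 3 rose and 0 fell. These were Ncl (log2 fold change 1.13 ± 0.16, edgeR adjusted p = 0.00355), Rpl30 (0.83 ± 0.14, 0.00542) and Trnau1ap (0.92 ± 0.19, 0.0109), all kept in every alternative, and 1 gene of the list fell without tumor library 1. Ncl is also a nucleolar protein of ribosome assembly and Rpl30 a ribosomal protein, and Trnau1ap, which binds the selenocysteine transfer RNA, was at 7.10, 6.81, 7.09 and 9.06 CPM in controls and 10.3, 12.6, 16.8 and 17.2 CPM in tumor mice. In the list of other oxidative repair genes (13 tested), Msrb2, the mitochondrial methionine sulfoxide reductase, fell with a log2 fold change of -0.95 ± 0.30 (edgeR adjusted p = 0.0497), and the call was missed when control library 1, 2, 3 or 4 or tumor library 1, 3 or 4 was left out (edgeR adjusted p 0.069 to 0.136).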

How the data were processed

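Polyadenylated RNA of quadriceps from 8 mice, 4 per group, was sequenced as 1 library per mouse. The authors deposited 1 table of estimated counts per gene symbol, of which 9% were not exactly whole (18.6% among symbols with a count). The submitters' processing notes name STAR 2.7.9a, Salmon 1.10.1, Trim Galore 0.6.7, cutadapt 3.4, R 4.2.2 and build GRCm39. The sources used here do not state the annotation or the strand setting. Estimated counts divide shared reads among near-identical genes, so values of such copies are uncertain.

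Counts were rounded, filtered with filterByExpr (minimum count 10; 14070 genes holding 99.92% of counts), scaled by TMM and tested with the edgeR 4.0.16 quasi-likelihood F test in R 4.3.3, fitting group alone, with Benjamini-Hochberg adjustment over all genes at a threshold of 0.05. The SE was computed as log2 fold change over the root of F, and the biological coefficient of variation was 30.1%. Named genes were all called members, core enzymes and transferases with a mean of at least 10 CPM whatever their result, and up to 4 called genes of each pathway list, or 2 where none was called. Members and lists were chosen with earlier results of these data known. Ratios within libraries were tested by exact permutation. Alternatives covered scaling (DESeq2 size factors, upper quartile, TMM without the 50 most abundant and mitochondrial genes), count filters (none, stricter), tests (DESeq2 1.42.0, limma-voom 3.58.1 with and without quality weights), the replicate number as block, a myosin ratio covariate, and left-out libraries. The steps were tested on simulated data. All 8 libraries were kept, since within each group no pair matched within counting noise. Protein sequences were not used here.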

Additional observations from a re-analysis of the deposited data

Results flagged for a closer look

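In 12 of 126 groups of 4 libraries (9.52%), 1 library lay far from the other 3; chance gives about 1 in 20. Catalase (Cat) was 208 CPM in control library 4, with the next at 99.8 CPM, and 259 CPM in tumor library 2, with the next at 109 CPM. Gsto1 was 34.7 CPM in control library 4 (next 18.4) and Gss 5.65 CPM in the same library (next 3.51). Mgst1 was 33.6 CPM in tumor library 2 (next 8.30) and Gsta3 was 1.75 CPM there (next 0.258), while Gpx4 was lowest there at 299 CPM (next 331). In control library 2, Gstm2 was 41.1 CPM (next 25.5) and Gstt2 was 3.04 CPM (next 1.74). In tumor library 3, Gstp2 was 84.2 CPM (next 71.2), Gpx7 was 6.55 CPM (next 4.71) and Prdx2 was lowest at 40.8 CPM (next 46.7). Control library 4 and tumor library 2 hold 7 of the 12 values, and these are the libraries with the lowest Myh4 share (64.6% and 80.3%).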

How the results depend on the processing

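With 12 higher and 4 lower genes among the 63 as the starting point, upper-quartile scaling gave 7 and 8 (19.3% of all genes called), the stricter count filter 12 and 8 (26.2%), DESeq2 16 and 8 (26%), dropping control library 4 and tumor library 2 together 9 and 8 (20.7%), and limma-voom with quality weights 18 and 12 (35.4%, 2616 higher and 2366 lower). With each library left out in turn, higher genes numbered 5 to 13 and lower genes 0 to 8, and over all genes 630 to 1551 higher and 480 to 1450 lower. The log2 ratio of Txnip to Txn1 then differed by -1.07 to -0.38. The replicate block (the replicate number as a term) left 7 higher and 4 lower genes of the 63 and 1014 higher and 918 lower of all, ending the calls of Gclc, Gstm5, Nfe2l2, Txn1 and Txndc9. Correlations of same-numbered libraries were 0.03, 0.13, 0.20 and 0.02, not every library correlated best with its own number, and the libraries were not treated as paired. Of the values of named genes under the alternatives, 949 kept direction and side of the threshold, 162 lost the call, 45 gained it and 21 changed sign, in genes that were not called. Among the latter, without control 4 and tumor 2 together the log2 fold changes were 0.18 for Gss, -0.0034 for Prdx1, -0.031 for Txnip and 0.047 for Gsto1; with the myosin covariate 0.12 for Gss, 0.062 for Prdx6, -0.070 for Txnip and 0.013 for Gsto1; with upper-quartile scaling -0.00026 for Prdx1 and -0.035 for Txnip; and 0.0016 for Gsto1 with quality weights. With 1 library left out, the ranges were -0.33 to 0.16 for Gss, -0.35 to 0.60 for Cat, -0.0077 to 0.16 for Prdx1, -0.19 to 0.041 for Prdx6, -0.046 to 0.16 for Txnip and -0.31 to 0.097 for Gsto1. The cause was not tested. Depth limits the least counted genes, such as Gsta3 (0 to 54 counts per library) and Ggt6 (2 to 381).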
